A study of Mus musculus with 9 samples.

Results

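The miR-130 and miR-301 family was followed in the subcutaneous fat of mice through 6 mature miRNA arms: miR-130a-3p, miR-130a-5p, miR-130b-3p, miR-130b-5p, miR-301a-3p and miR-301b-3p. They were picked by name from the 860 mature miRNAs with a value in every library, and all 6 names had a row. Small RNA was sequenced from 9 mice, each its own library, with 3 mice in each of the groups WT, Hete KO and Homo KO. Ago1 encodes an Argonaute protein that carries miRNAs. In the knockout groups it was deleted in endothelial cells, heterozygously in Hete KO and homozygously in Homo KO, and the WT mice were littermates. Every animal, WT included, was aged 24 weeks and had been on a high-fat, high-sucrose diet since week 8, that is for 16 weeks. The sources used here give neither the promoter or Cre line behind the deletion nor the mouse strain, and Ago1 itself was not analysed here. The RNA came from whole fat, so that fewer cells of a type and less RNA per cell cannot be told apart.

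A miRNA hairpin is cut into a 5p and a 3p arm. The arm that Argonaute keeps is the guide strand, and in this family that is usually the 3p arm. The guide pairs with messenger RNAs mainly through its seed, bases 2 to 8 from the 5′ end. In fat the family is known for acting on Pparg, which encodes the nuclear receptor that drives the formation of adipocytes: in human preadipocytes miR-130a and miR-130b were reported to lower PPARG and to restrain adipogenesis. miR-130a is also known as a pro-angiogenic miRNA of endothelial cells, and miR-130b has been reported in the blood of obese people.

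The mature sequences show what makes these miRNAs a family. Capitals mark the seed, and the sequences are those of RefSeq on GRCm38.p6, written 5′ to 3′. Of the 3p arms, miR-301b-3p is named only.
miR-130a-3p: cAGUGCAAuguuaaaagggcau
miR-130b-3p: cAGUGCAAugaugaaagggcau
miR-301a-3p: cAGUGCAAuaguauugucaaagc
miR-130a-5p: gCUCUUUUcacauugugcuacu
miR-130b-5p: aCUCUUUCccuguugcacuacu
The 3 printed guide strands share the seed AGUGCAA. Aligned at their 5′ ends and counted from 1 there, miR-130a-3p and miR-130b-3p are identical at 20 of 22 bases and differ by U11A and A13G. miR-301a-3p has the same first 9 bases as miR-130a-3p but only 12 of 22 bases in common with it. The 5p arms carry other seeds, CUCUUUU in miR-130a-5p and CUCUUUC in miR-130b-5p, and would pair with other messengers. Among all mature mouse miRNAs of the RefSeq table, the seed AGUGCAA is also that of miR-130c, miR-721, miR-6341 and miR-6389, which were not analysed here.

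The hairpins come from 3 places in the genome. Mir130a lies at chr2:84741115-84741178 on the minus strand, outside any annotated gene of GENCODE vM21 and 991 bases from Gm19426, the nearest one. Mir301, the hairpin of miR-301a, lies at chr11:87113004-87113089 on the plus strand in an intron of Ska2, a gene of the kinetochore. Mir130b (chr16:17124061-17124142) and Mir301b (chr16:17124400-17124496) lie on the minus strand 257 bases apart, both in an intron of the protein-coding gene 2610318N02Rik. The 4 hairpins are printed with the letters AGUGCAA in capitals, because they show how close the miR-301 copies are to each other.
Mir130a: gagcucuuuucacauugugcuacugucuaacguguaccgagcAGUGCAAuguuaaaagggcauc
Mir130b: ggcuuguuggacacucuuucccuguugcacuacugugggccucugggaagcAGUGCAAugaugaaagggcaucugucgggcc
Mir301: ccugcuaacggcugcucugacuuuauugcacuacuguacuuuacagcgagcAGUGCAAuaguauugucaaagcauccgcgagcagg
Mir301b: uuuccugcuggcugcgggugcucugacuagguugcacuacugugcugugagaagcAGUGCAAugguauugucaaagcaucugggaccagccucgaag
From the first capital on, 20 of 21 bases of Mir301 and Mir301b are identical (A9G, counted from that base), against 19 of 21 for Mir130a and Mir130b. How the authors assigned reads to such close copies is not stated in the sources used here, so a share of the reads of miR-301a-3p and miR-301b-3p, or of miR-130a-3p and miR-130b-3p, may be exchanged between them. In Mir130b, Mir301 and Mir301b the opposite arm also holds UUGCACU, the exact complement of the seed. In Mir130a it does not.

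The seed match in Pparg is shown as background for the family's name. Of 5 protein-coding transcripts of mouse Pparg (chromosome 6, GENCODE vM21), 3 have an annotated 3′ untranslated region, and each holds TTGCACT once, beginning at base 42 of that region. The site with its surroundings is given in the letters of the transcript, with the match in capitals.
Pparg 3′ site: tccttctattgaTTGCACTattattttgag
No match was found in the coding sequence. The motif was searched on the transcript strand only. It was present in the first 204 bases of the 3′ untranslated region, the length of that of Pparg, in 1.62% of 18016 genes whose region is at least that long. A match of letters is a description, and no messenger RNA was measured in these libraries.

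The 9 libraries share their highest log2 value and nearly the same ranked set of values, as quantile normalization would leave them, but the sources used here do not state the normalization. On such values total miRNA content and read depth cannot be compared, and the number of reads is unknown. Their only trace of depth, how many miRNAs sat at the bottom value of a library, was 63 to 104 in WT, 101 to 152 in Hete KO and 102 to 141 in Homo KO. The miRNAs abundant in fat had a mean log2 level between 15.46 and 15.87 in every library, and those of mural cells and fibroblasts between 14.82 and 15.32. Both arms of endothelial miR-126a averaged 16.31 to 16.66 in WT, 15.68 to 16.05 in Hete KO and 16.03 to 16.19 in Homo KO. Leukocyte miRNAs averaged 11.56 to 11.66, 11.29 to 11.82 and 11.93 to 12.19 in that order of groups, and erythroid miRNAs 11.01 to 11.55, 9.67 to 11.26 and 10.75 to 11.19. Skeletal muscle miRNAs ran from 6.17 to 14.35 over all libraries. Epithelial miRNAs averaged 8.97 in Hete KO replicate 1 and 5.62 to 6.75 elsewhere. No miRNA of these lists was at the lowest value in all libraries of a group.

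miR-130a-3p was the leading arm of the family in every mouse. Its mean log2 level over the 9 libraries was 10.40, which placed it 119th from the top of the 860 miRNAs on average. miR-301a-3p came next at 7.51, followed by miR-301b-3p at 7.15, miR-130a-5p at 5.22, miR-130b-3p at 5.15 and miR-130b-5p at 4.24. The mature sequences printed above are 22 or 23 bases long, so scaling by length would barely change the order of those arms. miR-301b-3p is not among them, and no property other than length was considered. miR-130a-3p exceeded miR-301a-3p by 2.89 ± 0.42 on the log2 scale (SD over 9 libraries, higher in 9 of 9). miR-301a-3p exceeded miR-301b-3p by 0.36 ± 0.11, also in 9 of 9, although the ranges of the pair overlap. miR-301b-3p exceeded miR-130b-3p by 2.01 ± 0.45 in 9 of 9. The order of miR-130b-3p and miR-130a-5p was not settled: their difference was -0.07 ± 0.59, with miR-130b-3p the higher in 3 of 9. miR-130a-5p lay above miR-130b-5p by 0.98 ± 0.61 in 8 of 9 libraries, and both held the identical value in WT replicate 1. None of the 6 arms was at a library's lowest value in any mouse, and all 6 passed the filter on low values, for a mean of at least 3.46.

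Of 489 miRNAs tested in Homo KO against WT, 16 passed the test (3.27%), and 0 of the 6 family arms did (limma, Benjamini-Hochberg adjusted p under 0.05). At an unadjusted p under 0.05 there were 117 of 489 (23.9%), with miR-130a-3p the only family arm among them. Hete KO against WT gave 2 calls among 489 (0.409%) and again 0 of the arms, and 77 were under 0.05 without adjustment (15.7%), miR-130a-3p once more the only arm. Between Homo KO and Hete KO 0 of 489 passed (0%), with 41 at an unadjusted p under 0.05 (8.38%), of which miR-130b-3p was one. Both comparisons with WT use the same 3 WT mice. The median log2 fold change over the 6 arms was 0.18 in Homo KO against WT, beside 0.07 over all tested miRNAs, and 0.02 in Hete KO against WT, beside -0.02. Over the 4 guide strands alone the median was 0.09 in Homo KO and -0.01 in Hete KO against WT, close to that of all tested miRNAs. A moderated F-test over the 3 genotypes called 6 miRNAs and none of the arms.

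miR-130a-3p stood nearest to the threshold. Its log2 level was 9.90, 9.74 and 10.10 in WT replicates 1 to 3, 10.24, 10.64 and 10.92 in Hete KO and 10.64, 10.56 and 10.82 in Homo KO. All 6 knockout mice lay above all 3 WT mice, and the Hete KO and Homo KO values overlapped. The group means were 9.92 ± 0.18, 10.60 ± 0.34 and 10.67 ± 0.13 (SD, n = 3 each). Homo KO against WT gave a log2 fold change of 0.76 ± 0.19 (SE), a 1.69-fold difference with a 95% interval of 0.34 to 1.18 on the log2 scale. Its limma adjusted p was 0.0526, 23rd of the 489 by p, so it did not pass. Groups without overlap were found for 160 of 489 miRNAs in this comparison (32.7%), and among the 6 arms for miR-130a-3p alone. Hete KO against WT had 84 of 489 (17.2%), and 2 of the 6 arms, miR-130a-3p and miR-130b-3p. In that comparison the log2 fold change of miR-130a-3p was 0.68 ± 0.19 (SE, adjusted p = 0.101), a 1.60-fold difference. Homo KO and Hete KO differed by 0.08 ± 0.19, with an interval of -0.35 to 0.50 (adjusted p = 0.966). The F-test over the genotypes gave an adjusted p of 0.104.

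Over 21 alternative settings, the estimate for Homo KO against WT stayed between 0.57 and 0.86, and its adjusted p ran from 0.0129 to 0.438 and was under 0.05 in 5 of them. Without Hete KO replicate 1 the adjusted p was 0.0254, and with only Homo KO and WT in the fit 0.0368. Leaving out any single WT or Homo KO library gave 0.06 to 0.193, and the mean of the muscle miRNAs as a covariate gave 0.182. The estimate for Hete KO ran from 0.47 to 0.86, and leaving out Hete KO replicate 1 gave 0.86 with an adjusted p of 0.0365. Leaving out another Hete KO library or any WT library gave an adjusted p of 0.0952 to 0.344. With that count of bottom values as a covariate the estimates were 0.86 (adjusted p = 0.194) in Homo KO and 0.78 (0.357) in Hete KO. The mean of both endothelial miR-126a arms, given above, lay lower in every knockout library than in any WT library, but neither arm passed the test. miR-126a-5p had a log2 fold change of -0.47 ± 0.14 in Homo KO against WT (SE, adjusted p = 0.0869). For miR-126a-3p it was -0.27 ± 0.19 (adjusted p = 0.428), and WT replicate 1 had the same log2 level, 17.58, as Hete KO replicate 1 and Homo KO replicates 1 and 2. The mean level over the leukocyte list was highest in Homo KO, but within the list miR-155-5p had its highest group mean in WT (10.40, against 10.34 in Homo KO) and miR-223-3p in Hete KO (12.29, against 12.27 in Homo KO). The part of these cell types in the levels of miR-130a-3p was not tested.

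**Figure D1:**
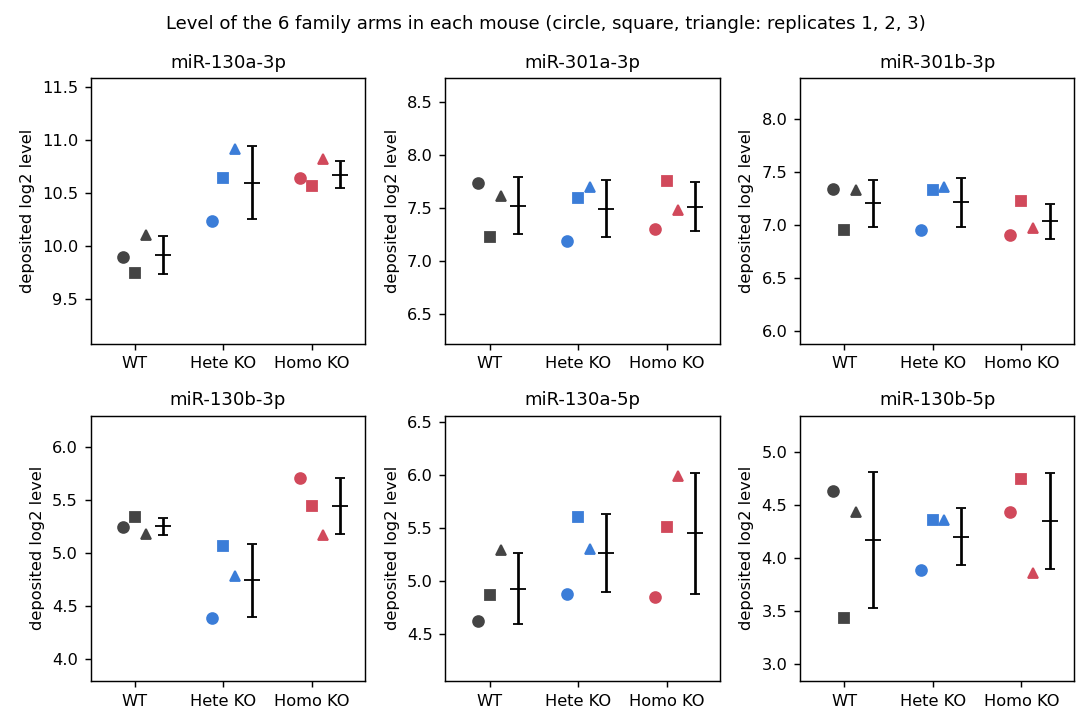
Deposited log2 level of each family arm (vertical axes, all of the same span) in WT, Hete KO and Homo KO. Circles, squares and triangles are replicates 1, 2 and 3 of a group, and the bars give the mean ± SD over 3 mice. For miR-130a-3p the knockout mice, from 10.24 to 10.92, lie above the WT mice, from 9.74 to 10.10, and for miR-130b-3p the Hete KO mice lie below the others.

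miR-130b-3p, whose sequence differs from that of miR-130a-3p at 2 bases, had another order of groups. It was at 5.24, 5.34 and 5.18 in WT, 4.38, 5.07 and 4.78 in Hete KO and 5.70, 5.45 and 5.17 in Homo KO. The 3 Hete KO mice lay below all other mice, while WT and Homo KO overlapped. Groups without overlap were found for 84 of 489 miRNAs in Hete KO against WT (17.2%) and for 60 of 489 in Homo KO against Hete KO (12.3%). The log2 fold change was -0.51 ± 0.24 in Hete KO against WT (SE, limma adjusted p = 0.351) and 0.70 ± 0.24 in Homo KO against Hete KO (adjusted p = 0.509, unadjusted p = 0.0176 in the same limma fit). For Homo KO against WT it was 0.19 ± 0.24, with an interval of -0.36 to 0.73. None of these passed. The arm is rare, near the 382nd place of 860, and between 0 and 7 other miRNAs held exactly its value in a library, so its levels are coarse steps.

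The miR-301 guide strands showed means that were close in the 3 genotypes. miR-301a-3p was at 7.74, 7.23 and 7.61 in WT, 7.19, 7.60 and 7.70 in Hete KO and 7.30, 7.76 and 7.48 in Homo KO. Its groups overlapped fully, with means of 7.52 ± 0.27, 7.50 ± 0.27 and 7.51 ± 0.23 (SD, n = 3 each). The 95% interval of its log2 fold change was -0.48 to 0.45 in Homo KO against WT and -0.49 to 0.44 in Hete KO against WT, so that changes within about these bounds cannot be told from none. miR-301b-3p was at 7.34, 6.95 and 7.33 in WT, 6.95, 7.34 and 7.36 in Hete KO and 6.91, 7.23 and 6.97 in Homo KO. Its groups overlapped as well, and Homo KO against WT gave -0.17 ± 0.18 (SE, limma adjusted p = 0.572), with an interval of -0.59 to 0.24.

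The 5p arms were rare and scattered between mice of a group. miR-130a-5p, the passenger arm of Mir130a, was at 4.63, 4.87 and 5.29 in WT, 4.88, 5.61 and 5.31 in Hete KO and 4.85, 5.51 and 5.99 in Homo KO. The order of its group means was that of miR-130a-3p, but the groups overlapped, and the log2 fold changes were 0.52 ± 0.33 in Homo KO and 0.33 ± 0.33 in Hete KO against WT (SE, limma adjusted p = 0.384 and 0.686). miR-130b-5p was at 4.63, 3.44 and 4.44 in WT, 3.89, 4.35 and 4.36 in Hete KO and 4.44, 4.74 and 3.86 in Homo KO. WT replicate 2 was its lowest library, and the interval for Homo KO against WT was wide, from -0.70 to 1.05. Up to 16 other miRNAs shared its exact value in a library. The remaining arm with a row, miR-301a-5p, is outside the 6 names. It was at 4.71, 4.16 and 4.03 in WT, 4.13, 2.21 and 3.36 in Hete KO and 4.15, 3.81 and 3.86 in Homo KO, and Hete KO against WT gave -1.07 ± 0.48 (SE, limma adjusted p = 0.312). That estimate includes the low and coarse value of Hete KO replicate 2, which 41 other miRNAs of that library shared.

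**Figure D2:**
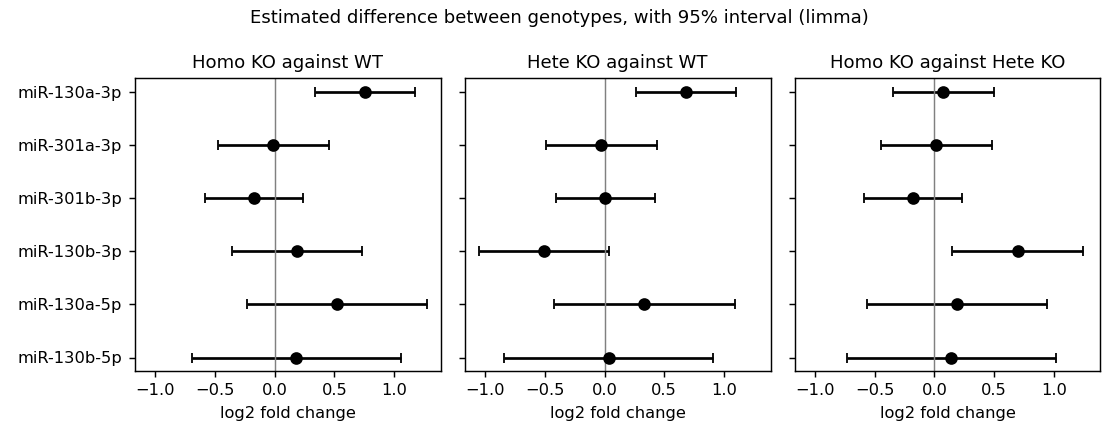
Estimated log2 fold change of each family arm (points) with its 95% interval (bars) from the limma fit, for Homo KO against WT, Hete KO against WT and Homo KO against Hete KO. The intervals of miR-130a-3p against WT, 0.34 to 1.18 and 0.26 to 1.10, and that of miR-130b-3p between the knockouts, 0.15 to 1.24, do not include 0, and no adjusted p was under 0.05.

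Levels within a mouse were also compared, since a difference between members of the family does not depend on a shift common to them. miR-130a-3p exceeded miR-301a-3p by 2.16, 2.52 and 2.49 on the log2 scale in WT, by 3.05, 3.04 and 3.22 in Hete KO and by 3.34, 2.80 and 3.33 in Homo KO. Every knockout mouse showed a wider gap than every WT mouse. The mean gap was 0.77 wider in Homo KO than in WT and 0.71 wider in Hete KO than in WT. Each gave a two-sided p of 0.1 in an exact permutation test, the smallest that 3 mice against 3 can give, and 0.25 after adjustment over 15 such comparisons. The gap to miR-301b-3p was 2.71 ± 0.13 in WT, 3.38 ± 0.15 in Hete KO and 3.64 ± 0.27 in Homo KO (SD, n = 3 each), again without overlap between WT and either knockout group (exact permutation p = 0.1 each, adjusted 0.25). The gap to miR-130b-3p was 4.66 ± 0.26, 5.86 ± 0.28 and 5.23 ± 0.37, with the same exact p for each knockout group against WT. These gaps contain the levels of miR-130a-3p described above and are not separate evidence.

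On the linear scale, miR-130a-3p made up 72.4% ± 2.13 of the summed level of the 4 guide strands in WT, 81.4% ± 1.35 in Hete KO and 82.0% ± 2.86 in Homo KO (SD, n = 3 each). miR-301a-3p held 13.8% ± 1.54, 9.43% ± 0.48 and 9.23% ± 1.74 in the same order. miR-301b-3p held 11.0% ± 0.70, 7.77% ± 0.67 and 6.59% ± 1.03, and miR-130b-3p between 1.14% and 3.38% in any mouse. Shares of a sum are tied to each other, so a larger share of miR-130a-3p lowers the others.

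**Figure D3:**
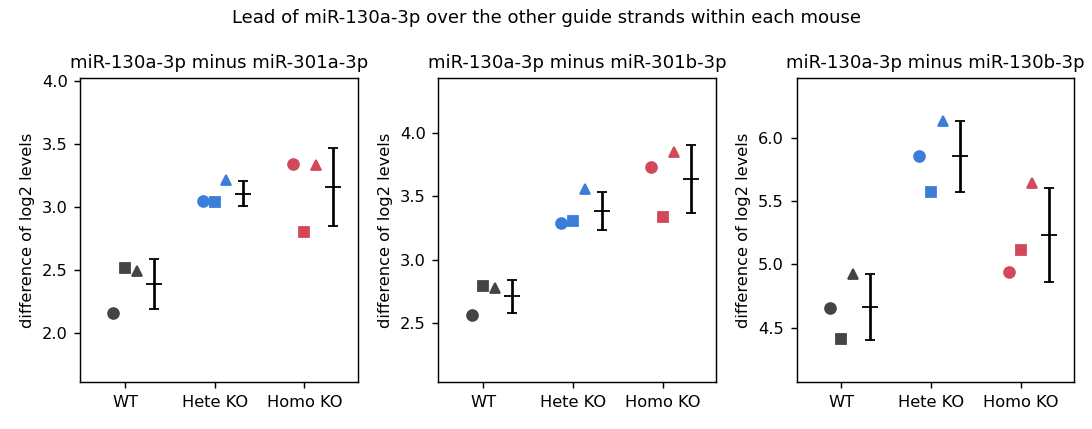
Difference of log2 levels between miR-130a-3p and miR-301a-3p, miR-301b-3p or miR-130b-3p within each mouse (vertical axes), in WT, Hete KO and Homo KO. Symbols are replicates 1 (circle), 2 (square) and 3 (triangle), and bars give the mean ± SD over 3 mice. In each panel the 3 WT mice lie below the 6 knockout mice.

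The imbalance between the arms of a hairpin was compared in the same way. miR-130a-3p exceeded miR-130a-5p by 4.99 ± 0.25 in WT, 5.33 ± 0.29 in Hete KO and 5.22 ± 0.50 in Homo KO (SD, n = 3 each). The groups overlapped, with a two-sided p of 0.6 for Homo KO against WT and 0.2 for Hete KO against WT (exact permutation tests). The arms of miR-130b were much closer in level. Their difference was 1.09 ± 0.71, 0.54 ± 0.15 and 1.10 ± 0.34 in the same order, and exact permutation tests gave 1.0 for Homo KO and 0.2 for Hete KO against WT.

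Across the 9 libraries the likeness between members ranged widely. miR-301a-3p and miR-301b-3p, from different chromosomes, had a Pearson r of 0.87, and of 0.98 for the deviations from their group means. In Homo KO their difference was 0.39 to 0.53, against 0.24 to 0.39 in the other mice. miR-301b-3p and miR-130b-3p, from neighbouring hairpins, had an r of -0.11 (0.29 within groups), which placed miR-301b-3p 310th among the 488 other tested miRNAs in likeness to miR-130b-3p. Their log2 difference was 1.96 ± 0.30 in WT, 2.47 ± 0.18 in Hete KO and 1.59 ± 0.34 in Homo KO (SD, n = 3 each). The other arm of Mir130b, miR-130b-5p, had an r of 0.66 with miR-301b-3p (0.84 within groups). That placed miR-301b-3p 14th of 488 in likeness to miR-130b-5p, so the 2 arms of Mir130b differed in this. With miR-301a-3p, from another chromosome, miR-130b-5p had an r of 0.77 (0.78 within groups). miR-130a-3p had an r of 0.67 with its own 5p arm, 0.26 with miR-301a-3p and -0.06 with miR-130b-3p. All these values come from the same 9 normalized libraries and are descriptions. Close sequences can also share reads, as given above for miR-301a-3p and miR-301b-3p.

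**Figure D4:**
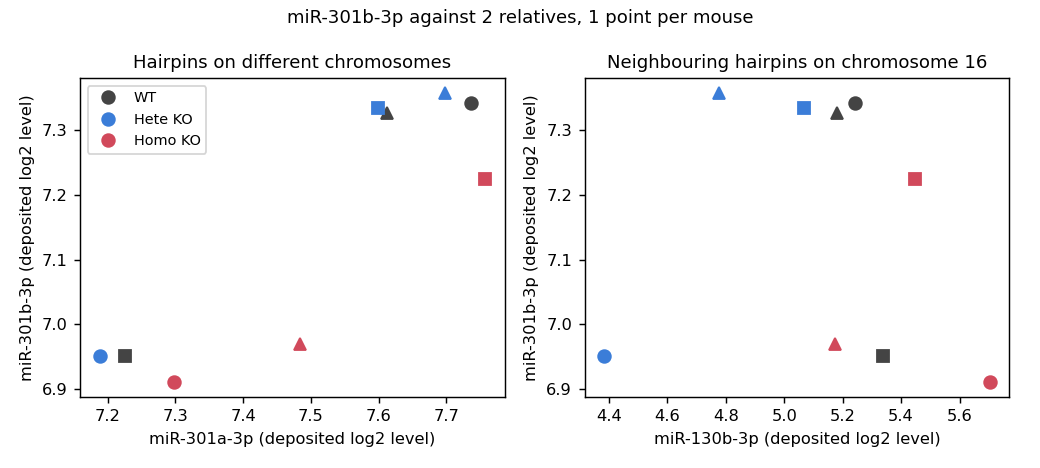
Deposited log2 level of miR-301b-3p (vertical axes) against miR-301a-3p (left) and miR-130b-3p (right), 1 point per mouse, coloured by genotype; circles, squares and triangles are replicates 1, 2 and 3. The left points rise together (r = 0.87 over 9 libraries) and the right points show no such line (r = -0.11). The other arm of Mir130b, miR-130b-5p, is not shown (r = 0.66 with miR-301b-3p).

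By the same measure, the miRNAs most like miR-130a-3p were miR-203-3p (r = 0.96 over 9 libraries, 0.84 within groups), miR-101c (0.94) and miR-339-3p (0.93). No other family arm was among its 50 most similar miRNAs, nor among those of miR-130b-3p. miR-130b-3p was most like miR-5099 (0.85), miR-107-5p (0.81) and miR-144-3p (0.81). For miR-301a-3p they were miR-3084-5p (0.89), miR-301b-3p (0.87) and miR-493-5p (0.83), and for miR-301b-3p miR-301a-3p, miR-331-3p (0.83) and miR-328-3p (0.77). Both miR-301 guides had miR-130b-5p among their 50 most similar miRNAs. Of the miRNAs named here, miR-203-3p is also 1 of the 7 on the epithelial list and miR-144-3p 1 of the 3 on the erythroid list. The epithelial list averaged 8.97 in Hete KO replicate 1, where miR-130a-3p was at 10.24, its lowest among the knockout mice. The part of these cell types in the likeness was not tested.

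Other miRNAs reported to act on adipogenesis gave a setting for the family. Of 14 listed as restraining it, 13 were tested, and in Homo KO against WT 1 was lower and 0 higher by limma, with a median log2 fold change of -0.07. The called one was miR-221-3p (-0.96 ± 0.21 SE, adjusted p = 0.0424), which is known from endothelial and dividing cells. Of the 13, 0 passed in Hete KO against WT, with a median of -0.04. Of 15 listed as promoting adipogenesis 14 were tested and 0 passed in either comparison, with medians of 0.05 in Homo KO and 0.07 in Hete KO. Over all 489 tested miRNAs, 16 passed in Homo KO (3.27%) and 2 in Hete KO (0.409%) against WT, so such counts say little about lists this short. miR-27a-3p and miR-27b-3p, which are also known to act on Pparg, were far more abundant than the family, at 14.68 ± 0.29 and 14.73 ± 0.21 in WT (SD, n = 3 each). Their log2 fold changes in Homo KO against WT were 0.18 ± 0.16 and 0.07 ± 0.13 (SE, limma adjusted p = 0.507 and 0.753), and neither passed.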

How the data were processed

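Small RNA of subcutaneous fat from 9 mice was extracted with Trizol and made into libraries with the TruSeq small RNA kit, per the labels' protocols, and the build was mm10, per the submitters' processing notes. The sources used here do not state the aligner, the counting or the normalization. The deposited files hold log2 values from 0 to 19.99 with the same maximum in every library, although their names speak of FPKM, and were treated as quantile-normalized log2(x + 1) values. The depth is unknown, so no counting interval is given.

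Groups came from the genotype label, and p-values measure the spread between mice. No pseudocount was added, since the values were already logarithms. The filter asked for a mean of log2(10 + 1) or more and for 3 or more libraries above their bottom value, which kept 489 miRNAs and left out 371. limma 3.58.1 in R 4.3.3 (eBayes with a variance trend) was fitted to all 9 libraries with no covariate, and adjusted p-values cover all 489. Fold changes on this scale understate those of rare miRNAs. Differences within a mouse were compared by exact two-sided permutation tests (SciPy 1.17.1). The fit was tested on simulated data. Named were the 6 members, their other arms, miRNAs of the same seed, 2 adipogenesis lists (called members and miR-27), both miR-126a arms and, for each 3p arm, the 3 miRNAs of highest Pearson r. Marker lists covered adipose-abundant, endothelial, skeletal muscle, leukocyte, erythroid, epithelial, and mural and fibroblast miRNAs. Members and lists were chosen with earlier results of these data known. Sequences come from RefSeq (GRCm38.p6) and GENCODE vM21, whose assembly is that of mm10. Alternatives are given in the closing section.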

Additional observations from a re-analysis of the deposited data

How the results depend on the processing

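The estimates of the 6 arms were recomputed under 20 or 21 alternatives each, 369 values in all, of which 328 kept direction and side of the threshold, 7 newly passed and 34 changed sign. A change of filter, variance trend or replicate block, or of libraries outside the groups compared, leaves a fold change as it is. Its direction could not change in those fits, which say nothing about the stability of the sign. The 7 that newly passed were all of miR-130a-3p, whose sign against WT held throughout. In Homo KO against WT it passed with the stricter filter (adjusted p = 0.0493), sample weights (0.0129), the replicate block (0.0326), only the groups compared (0.0368) and without Hete KO replicate 1 (0.0254), and in Hete KO against WT with sample weights (0.019) and without Hete KO replicate 1 (0.0365). So the count of family arms past the threshold was 1 in those 7 fits and 0 in the others. Under scaling by the median, the level of each arm in each group moved by less than the spread between mice. But the median of the tested miRNAs already lay between 7.01 and 7.05 in every library. Median scaling and a repeated quantile normalization could therefore change little, and these fits are no test of the normalization.

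Over all miRNAs, the count in Homo KO against WT was 9 with no filter, 74 with sample weights, 25 with the replicate block, 3 with the muscle covariate, 0 with the covariate of bottom values (101 at an unadjusted p under 0.05) and 8 without the 3 libraries richest in muscle miRNA, an alternative added after the data were seen that leaves WT with 1 mouse, assumed to vary like the others. Leaving out each library in turn gave 2 (without Homo KO replicate 1 or 3) to 25 (without Hete KO replicate 2). In Hete KO against WT it was 7 with the stricter filter, 1 with no variance trend, 34 with sample weights, 15 with the replicate block, 1 with only the groups compared, 0 with the covariate of bottom values (64 unadjusted), 10 without those 3 libraries and 1 to 24 (without Hete KO replicate 1) on leaving out 1 library. In Homo KO against Hete KO it was 4 without those 3 libraries and 0 on leaving out any 1. The cause of these differences was not tested.

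No family arm passed in the main fit, so every change of sign necessarily fell on an estimate that had not passed. In Homo KO against WT, miR-130b-5p was at -0.10 with sample weights and -0.090 without the 3 muscle-rich libraries, and miR-130b-3p at -0.10 with the covariate of bottom values, which moved the median of all tested miRNAs to 0.13. In Hete KO against WT, miR-130b-5p was at -0.11 with sample weights and -0.31 without the 3 libraries, miR-130a-5p at -0.20 and miR-301b-3p at -0.17 without them, and miR-301b-3p at -0.0032 with the muscle covariate and -0.027 with that of bottom values. In Homo KO against Hete KO, sample weights gave -0.077 for miR-130a-3p and -0.066 for miR-301a-3p, and the muscle covariate -0.056 for miR-301a-3p. Leaving out 1 library at a time, the estimates in Homo KO against WT ran from -0.19 to 0.42 for miR-130b-5p and -0.16 to 0.096 for miR-301a-3p. In Hete KO against WT they ran from -0.33 to 0.27 for miR-130b-5p, -0.18 to 0.12 for miR-301a-3p and -0.12 to 0.14 for miR-301b-3p. In Homo KO against Hete KO they ran from -0.11 to 0.23 for miR-130a-3p, -0.084 to 0.49 for miR-130a-5p, -0.056 to 0.39 for miR-130b-5p and -0.14 to 0.13 for miR-301a-3p. The change of the arm difference (3p minus 5p) ran from -0.048 to 0.43 for miR-130a in Homo KO against WT, -0.40 to 0.087 in Homo KO against Hete KO, and -0.23 to 0.42 for miR-130b in Homo KO against WT.

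The labels do not say that a replicate number marks a shared litter, batch or day, and the mice were not taken as paired: same-numbered libraries of different groups had correlations of their deviations from -0.28 to 0.55, over 0.1 in 5 of 9 pairs. But 7 of 9 libraries correlated best with one of their own number, and the 3 pairs of replicate 3 had correlations of 0.38 to 0.55. That is at most a hint of pairing, from the data and not from the design, since pairs of unlike number ran from -0.70 to 0.54. Since every group holds each replicate number once, the replicate block cannot change a fold change or its sign, only the spread. It took miR-130a-3p past the threshold in Homo KO against WT (limma adjusted p = 0.0326). The counts of called miRNAs rose to 25 and 15, from 16 in Homo KO and 2 in Hete KO against WT.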
